A study of Mus musculus with 12 samples.

Results

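P4-ATPases are pumps that use ATP to move phospholipids from the outer or luminal leaflet of a membrane to its cytosolic leaflet, and they are called lipid flippases. They keep phosphatidylserine and phosphatidylethanolamine on the cytosolic side, and this unequal distribution takes part in vesicle formation, apoptosis and, in the liver, the integrity of the bile canaliculus. Most of them leave the endoplasmic reticulum only in a complex with a CDC50 protein, of which Tmem30a is the widely expressed one, while Atp9a and Atp9b are known to work without it. The 9 genes described here are Atp9b, its paralogs Atp9a, Atp8a1, Atp8b1, Atp10a, Atp10d, Atp11a and Atp11b, and Tmem30a. They were listed because Atp9b was among the few genes whose levels did not overlap between the genotypes compared here. That comparison chose Atp9b, so its difference is a description without a test, and the other 8 genes were listed for their kinship with it.

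Of the 9 genes, 8 had a probe matched by RefSeq accession, Atp10d had none, and 7 were measured well enough to be tested among 16916 genes. The 8 genes were read by 11 probes. Liver RNA came from 6 Floxed and 6 LKO mice, 1 mouse per single-color Agilent array. All were C57BL/6 males aged 30 weeks on a chow with 20% casein. Floxed mice carried the conditional allele of Phgdh on both chromosomes (Phgdh flox/flox) and no Cre, and LKO mice were littermates that also carried Cre under the albumin promoter (Alb +/Cre; Phgdh flox/flox). Phgdh makes the first enzyme of serine synthesis from glucose, and serine is a building block of phosphatidylserine. The albumin promoter acts in hepatocytes, so the other cells of the liver keep Phgdh, and whole liver was measured. In such bulk RNA, fewer cells of a type and less RNA per cell cannot be told apart.

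The arrays lay on 3 slides, each scanned once. Slide 1 carried Floxed mice 1 to 4, slide 3 carried LKO mice 3 to 6, and slide 2 carried Floxed mice 5 and 6 with LKO mice 1 and 2. Slide 2 alone therefore holds both genotypes. Values are log2 intensities after quantile normalization over the 12 arrays, a step that gives all arrays the same distribution. They compare arrays for 1 probe, and levels of different probes are not comparable. The targeted gene Phgdh was at 5.18 ± 0.23 in Floxed mice and 4.70 ± 0.41 in LKO mice (SD, n = 6 each), lower in LKO mice by the criterion explained below, and limma gave this difference an adjusted p of 0.451. The arrays labelled LKO 1 and LKO 2 stood at 5.07 and 5.30, inside the Floxed range of 4.81 to 5.50, whereas LKO 3 to LKO 6 ranged from 4.23 to 4.66. Within slide 2 the difference was -0.05, and LKO mice on slide 3 differed from those on slide 2 by -0.73. The probe was dim, at percentile 8.3 of the tested genes. A second Phgdh probe read 2.87 in Floxed mice and 3.17 in LKO mice. It was well above background on only 1 Floxed and 3 LKO arrays, and no difference is read from it. Whether the Phgdh probes lie in the deleted exons is not known, and the mice were genotyped by PCR in the study, so the probes are a limited check of the labels. The differences of the tested members are given below with and without the arrays LKO 1 and LKO 2. Without them no slide holds both genotypes, so slide and genotype cannot be told apart in those values. Of 8 tested hepatocyte markers 0 were called by the same criterion, by which 8.35% of all tested genes were called. Their mean deviation per array was -0.07 to 0.10 in Floxed mice and -0.13 to 0.02 in LKO mice. The tested probe of Serpina1a among them had the same normalized value of 18.77 on all 12 arrays, so it could not be called. Its second probe differed by -0.12. Over 9 marker lists of liver, blood and neighboring tissues, 1 of 43 tested genes was called, against 8.35% of all tested genes. It was the endothelial gene Pecam1, higher in LKO mice by 0.70 and by 0.04 within slide 2. Of the fat markers, Cfd was well above background on all 12 arrays and Lep on 0. Retn was on 5 Floxed and 5 LKO arrays by 1 probe and on 5 and 6 by another. Adipoq was on 1 Floxed and 2 LKO arrays, and Plin1 on 0 and 1. Of the pancreas markers Cela1, Ctrb1 and Amy2a5 were on all 12 arrays and Pnlip and Cpa1 on 0. The part of cell types in the values below was not tested.

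Atp9b, a flippase of the trans-Golgi network, had the largest difference of the tested flippases. Its probe read 6.32, 5.89, 5.73, 5.72, 5.63 and 5.70 in Floxed mice 1 to 6. In LKO mice 1 to 6 it read 5.54, 5.22, 5.06, 5.05, 5.27 and 4.73. Every LKO value lay below every Floxed value, and the highest LKO value and the lowest Floxed value were 0.08 apart. The means were 5.83 ± 0.25 in Floxed mice and 5.14 ± 0.27 in LKO mice (SD, n = 6 each), a difference of -0.69 with a standard error of 0.14 and a 95% interval of -1.00 to -0.38. This corresponds to 0.622 times the Floxed level. Falls without overlap were found for 15 of the 16916 tested genes, or 0.0887% of them. Among these 15 genes Atp9b had the second largest fall and the second widest gap, while among all tested genes it ranked 87 by its fall. At the margin of that selection, Nol9 was just inside with a gap of 0.0081 and Cdc40 just outside with values that overlapped by 0.0023. Of the other listed flippases, Atp9a came nearest to a gap in either direction, with values that overlapped by 0.20 and LKO mice on the higher side. In the direction of a fall, Atp8b1 came nearest.

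The slide moved with Atp9b as well. The 2 mice that bordered on each other, LKO 1 and Floxed 5, were both on slide 2. Within that slide the difference was -0.29, nearer 0 than the difference of -0.69 over all arrays. Floxed mice on slide 2 differed from those on slide 1 by -0.25 on average, and LKO mice on slide 3 from those on slide 2 by -0.35. With slide as a block in limma the difference was -0.29 with a standard error of 0.22, and Atp9b was no longer called. Without LKO 1 and LKO 2 the difference was -0.80 (SE 0.15), a value in which LKO mice come from slide 3 alone. The part of the slide in the fall of Atp9b cannot be told apart from the genotype beyond the 4 arrays of slide 2.

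Atp9b was also a dim probe. Its level was at percentile 15.2 of the tested genes. Before any correction the median pixel intensity of its spot was 113.5 to 145 in Floxed mice and 93 to 123 in LKO mice, over a local background of 60 to 69.5. On every one of the 12 arrays it was nevertheless well above background by the scanner software. Its background-corrected intensity, not normalized between arrays, was 41.3 to 67.3 in Floxed mice and 28.0 to 51.3 in LKO mice, and these ranges overlapped. The gap thus appeared after arrays were brought to a common scale, and it was present under quantile normalization, under scaling to the 75th percentile, under normexp and in the values that the authors normalized. Dim genes were called more often in general. Of the 3383 genes in the dimmest 20% of the tested genes, 19.6% were called, against 8.35% of all genes, and they held 11 of the 15 genes that fell without overlap.

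**Figure D1:**
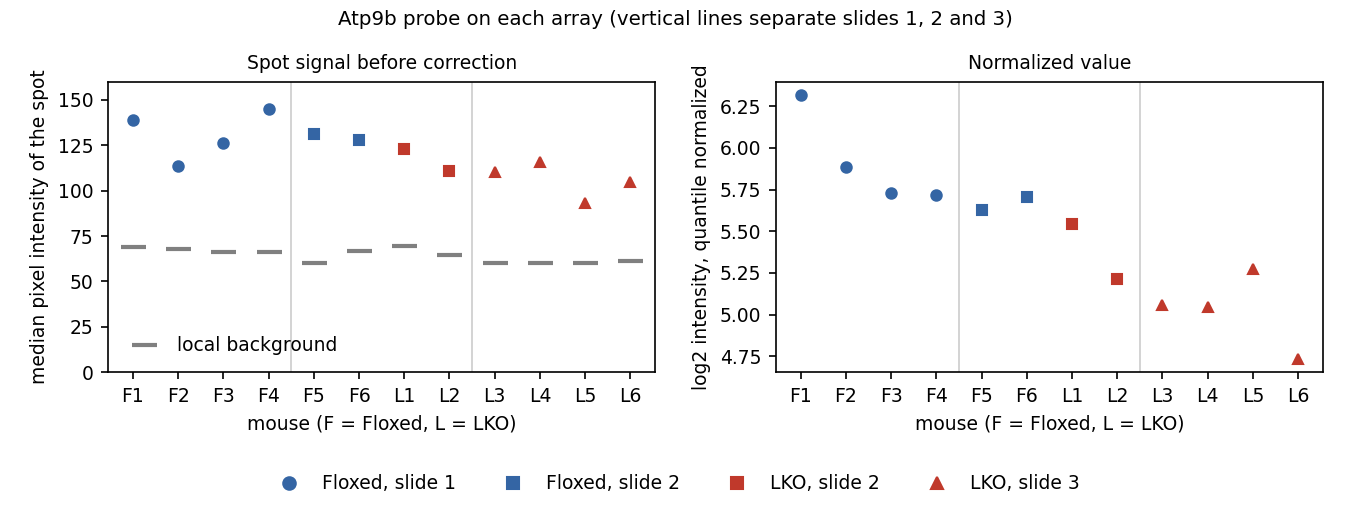
The left panel plots the median pixel intensity of the Atp9b spot (y axis, from 0) for each mouse (x axis), with grey dashes for the local background, and the right panel the quantile-normalized log2 intensity of the same probe. Spot intensities of the genotypes overlap between 113.5 and 123, while the normalized values do not overlap and the nearest Floxed and LKO mice share slide 2.

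Called here means an unadjusted p below 0.05 in limma, the criterion of the array methods of the study. By it 1413 of 16916 genes were called, 8.35% of all, with 3.43% of all genes called lower and 4.92% called higher in LKO mice. After Benjamini-Hochberg adjustment limma called 0 genes, with a smallest adjusted p of 0.132, and the methods' t-test called 1. Of the 7 tested members Atp9b alone was called, and since it was chosen on this contrast the count says nothing about the family. The other 6 were not called by limma on the brightest probe of each gene. Second probes of Atp9a and Atp11b are given with their intervals below. Of these 6, 5 were lower in LKO mice, with a median difference of -0.15 and a range of -0.31 to 0.12, beside a median of -0.0035 for all tested genes, of which 51.2% were lower.

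Atp9a is the closest paralog of Atp9b and resides in endosomes and the trans-Golgi network. It did not share the fall. Its bright probe read 14.02, 13.96, 14.17, 13.92, 14.07 and 14.08 in Floxed mice and 14.08, 14.23, 13.98, 14.30, 14.33 and 14.02 in LKO mice. LKO mice 2, 4 and 5 were above every Floxed mouse and the other 3 lay within the Floxed range. The difference was 0.12 (SE 0.08, 95% interval -0.06 to 0.30), 0.08 within slide 2 and 0.12 without LKO 1 and LKO 2. A second, dimmer probe of Atp9a gave 7.26 in Floxed mice and 7.54 in LKO mice, a difference of 0.28 (95% interval 0.03 to 0.54). Within slide 2 it was 0.005, and LKO mice on slide 3 were above those on slide 2 by 0.43. Both probes were higher in LKO mice. However, these probes of 1 gene did not rise and fall together over the 12 arrays (Pearson r of -0.04), so the direction for Atp9a is uncertain. Set against Atp9a on the same array, Atp9b was lower in each LKO mouse than in any Floxed mouse, with an average difference of -0.81 (SE 0.16). Against the other members on the same array the separation was not complete. The difference was -0.66 against Tmem30a and -0.54 against Atp11b, each with 5 of 6 LKO mice below the lowest Floxed mouse. It was -0.53 against Atp11a, -0.40 against Atp8a1 and -0.38 against Atp8b1, with 3, 2 and 1 of 6 LKO mice below. As Atp9b was chosen on this contrast, these values are descriptions too.

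**Figure D2:**
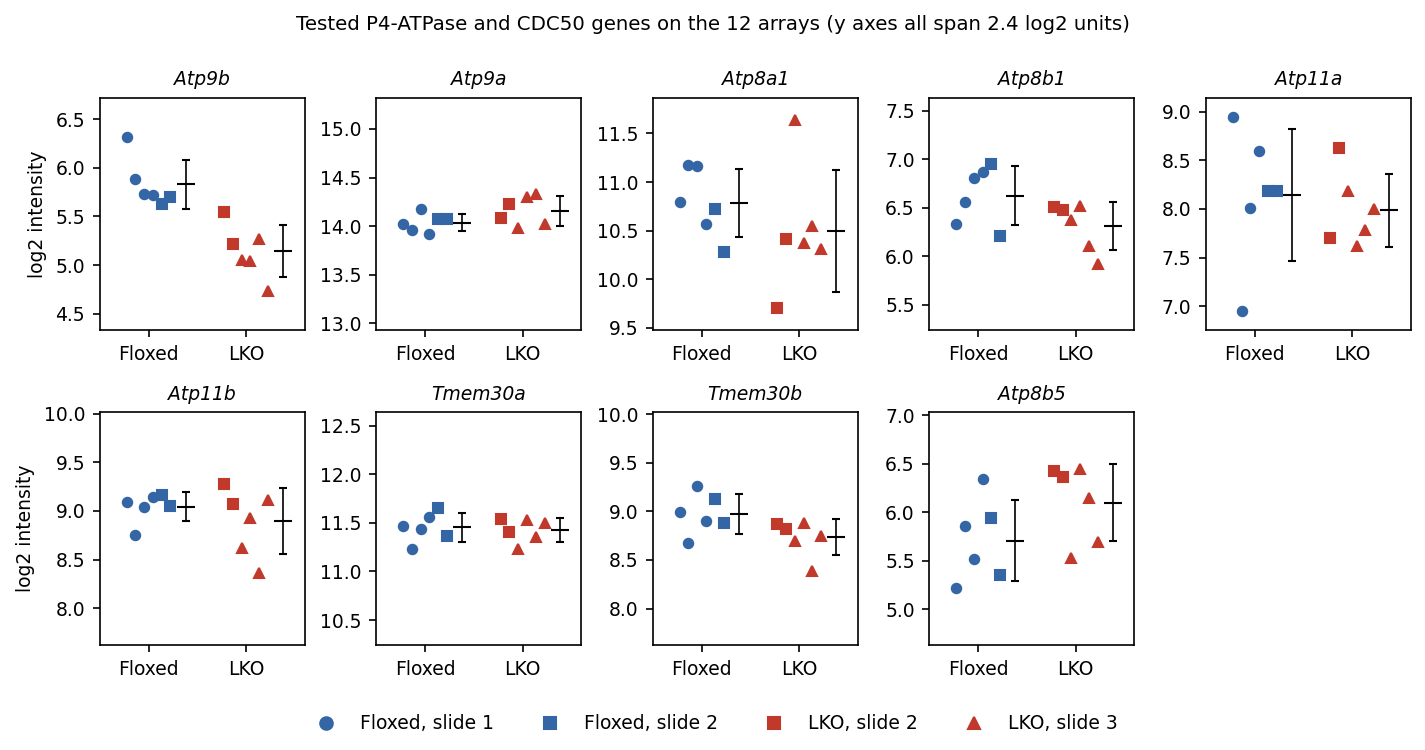
Each panel plots the log2 intensity of 1 flippase or CDC50 gene (y axis, all spanning 2.4 log2 units) in Floxed and LKO mice, with 1 point per array shaped by slide and the mean ± SD of 6 mice in black. Only in the panel of Atp9b are the genotypes separate, while in the panel of Atp8a1 LKO mice span the lowest and the highest value.

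Atp8b1 is the flippase of the canalicular membrane of hepatocytes, and its loss in people causes a hereditary cholestasis. Floxed mice read 6.34, 6.56, 6.81, 6.87, 6.95 and 6.21, and LKO mice 6.50, 6.48, 6.38, 6.51, 6.11 and 5.92. All 6 LKO mice lay below the Floxed median of 6.68, and LKO 5 and LKO 6 were below the lowest Floxed mouse. The difference was -0.31 (SE 0.15, 95% interval -0.63 to 0.02), so that Atp8b1 was not called. Of the tested family, Atp9b alone had a lower difference. Within slide 2 the difference was -0.09. Without the arrays LKO 1 and LKO 2 it was -0.39 (SE 0.17) and Atp8b1 was called, and it was also called when Floxed mouse 1 or Floxed mouse 6 was left out.

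Atp8a1, a phosphatidylserine flippase of recycling endosomes, varied more between LKO mice than between the genotypes. Floxed mice read 10.80, 11.17, 11.17, 10.56, 10.72 and 10.28, and LKO mice 9.70, 10.41, 11.64, 10.37, 10.54 and 10.31. LKO 1 was the lowest of all 12 mice and LKO 3 the highest. The difference was -0.29 with a standard error of 0.26 and a 95% interval of -0.86 to 0.29. Leaving out LKO 3 brought it to the called genes, with a difference of -0.51, and leaving out LKO 1 and LKO 2 reduced it to -0.07. The value of Atp8a1 therefore depended on which LKO mice were included.

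Atp11a and Atp11b flip phosphatidylserine and phosphatidylethanolamine, Atp11a at the plasma membrane and Atp11b in endosomes. The brighter probe of Atp11a read 8.95, 6.95, 8.01, 8.60, 8.18 and 8.18 in Floxed mice and 7.70, 8.63, 8.19, 7.61, 7.78 and 8.00 in LKO mice. Its widest swing was among Floxed mice, where mouse 1 was the highest and mouse 2 the lowest of all 12. All LKO values fell between these 2 mice. The difference was -0.16 (SE 0.28, 95% interval -0.77 to 0.46), and it was -0.25 without LKO 1 and LKO 2. The second probe gave -0.21 and followed the first closely over the arrays (Pearson r of 0.953), with Floxed 2 lowest on both probes, so the spread between mice was seen by both probes.

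Atp11b read 9.10, 8.76, 9.05, 9.15, 9.17 and 9.05 in Floxed mice. In LKO mice it read 9.28, 9.07, 8.62, 8.93, 8.36 and 9.12. Its difference was -0.15 (SE 0.14, 95% interval -0.46 to 0.17) over all arrays, 0.07 within slide 2 and -0.29 without LKO 1 and LKO 2. LKO 3 and LKO 5, both on slide 3, were below every Floxed mouse, and LKO 1 was above every one. A second and dim probe of Atp11b gave 4.97 in Floxed mice and 4.58 in LKO mice. Its difference was -0.39 (95% interval -0.72 to -0.06) over all arrays and 0.01 within slide 2. The probes of Atp11b were weakly related over the arrays (Pearson r of 0.34). When the probes of a gene were averaged, Atp11b was called lower and Atp9a higher.

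Tmem30a, the CDC50 subunit that most P4-ATPases need, changed least. It read 11.47, 11.24, 11.44, 11.56, 11.66 and 11.37 in Floxed mice and 11.54, 11.41, 11.23, 11.53, 11.36 and 11.50 in LKO mice. The genotypes overlapped nearly fully, with a difference of -0.03 (SE 0.09). The 95% interval ran from -0.21 to 0.16, and without LKO 1 and LKO 2 the difference was -0.05. Atp10a, a phosphatidylcholine flippase, was well above background on 0 of 12 arrays. Its spot medians were 67 to 74 in Floxed mice and 71 to 76 in LKO mice over a local background of 59 to 68.5. No fold is given for it, and its call as higher when dim probes were kept rests on such values.

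**Figure D3:**
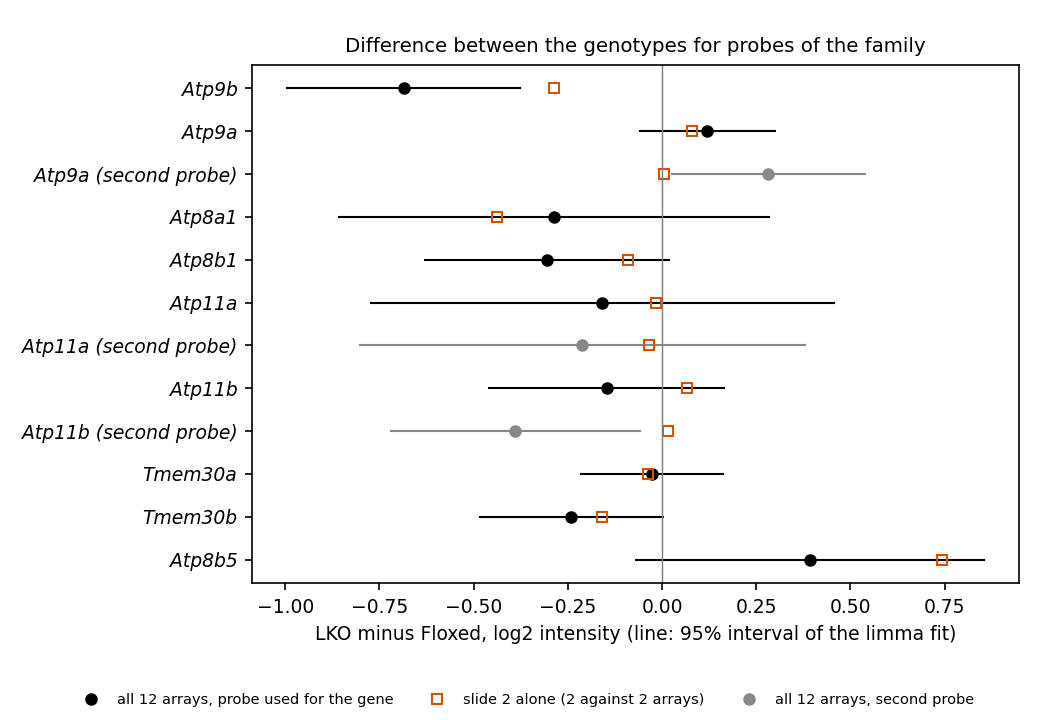
Points give LKO minus Floxed on the log2 scale (x axis) for each probe of the genes described here with a usable signal on all 12 arrays, with the 95% interval of the limma fit as a line, and open squares give the same difference within slide 2. The interval of Atp9b ends at -0.38, the second probes of Atp9a and Atp11b differ in size from the first, and squares lie nearer 0 than the points for Atp9b, Atp8b1 and Atp11a but not for Atp8a1 and Atp8b5.

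Among the other P4-ATPases and CDC50 genes, 3 of 9 were tested and none was called by limma, against a background of 8.35%. These genes were listed by family, with earlier results of these data known, and their adjusted p from limma is given. Values follow for Tmem30b and Atp8b5. Tmem30b, a second CDC50 subunit found in epithelia, was at 8.97 ± 0.20 in Floxed mice and 8.73 ± 0.18 in LKO mice (SD, n = 6 each). That difference of -0.24 (SE 0.11, adjusted p = 0.598) did not pass. A second probe of Tmem30b was above background on only 4 arrays of Floxed and 5 of LKO mice, and no difference is read from it. Atp8b5, known best from testis, had the largest difference upward, 0.39 (SE 0.21, adjusted p = 0.714), and 0.74 within slide 2, with overlapping groups, and a second probe of it was well above background on 0 of 12 arrays. Atp8a2, Atp8b2, Atp8b3, Atp10b and Tmem30c were not well above background on any array, and Atp8b4 was on 11.

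Some flippases varied between mice with a CDC50 gene, and none of the listed genes followed Atp9b closely. Of the 21 pairs of tested listed genes, 1 had an r over 0.6 once the genotype means were removed. Over the 12 arrays, as a description with shared arrays and no test, Atp11b followed Tmem30a with a Pearson r of 0.70 that was also 0.70 once the genotype means were removed. Atp11b had an r of 0.73 with Tmem30b. Atp8a1 ran the other way, with an r of -0.56 with Tmem30a. The r of the listed genes with Atp9b lay between -0.34 for Atp9a and 0.42 for Atp8b1, and between -0.18 and 0.14 once the genotype means were removed.

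Many genes followed Atp9b more closely than any flippase did. Of 12511 genes with a symbol compared over the 12 arrays, the highest r was that of Lrrc66 at 0.925, and Man1a at 0.900, Rpl27 at 0.898 and Ehbp1 at 0.898 were among the 5 highest. With genotype means removed these r were 0.825, 0.733, 0.863 and 0.796. Man1a encodes a Golgi mannosidase that trims N-glycans, while Rpl27 is a protein of the large ribosomal subunit. Removing genotype means leaves differences between slides in place. Lrrc66 differed by -1.61, Man1a by -0.76, Ehbp1 by -0.36 and Rpl27 by -0.07 in LKO mice. Within slide 2 these differences were -0.26, -0.25, 0.002 and -0.02. The genes are the top of 12511 for likeness to a gene chosen on this contrast, so the values are descriptions without a test. Atp8b1 ranked 1426 by the same measure and Atp9a 10381. For Lrrc66 the array of Floxed mouse 1, which is also the highest of Atp9b, stands apart at 9.11, and the next Floxed mouse is at 7.64.

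**Figure D4:**
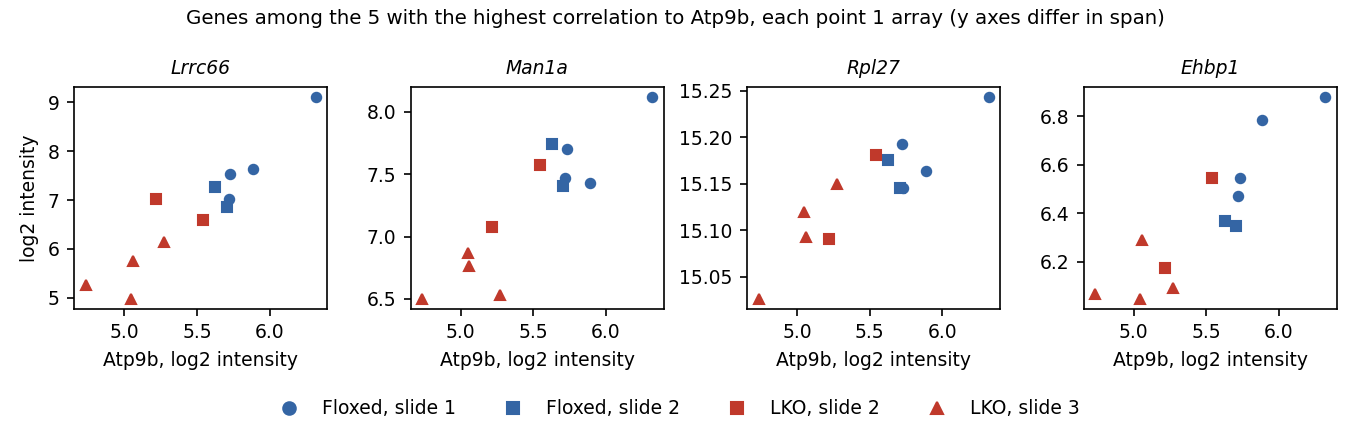
Each panel plots the log2 intensity of 1 gene (y axis, spans differ) against that of Atp9b (x axis), with 1 point per array colored by genotype and shaped by slide. In all 4 panels Floxed 1 is at the right edge with the highest value of the gene, and LKO 6 is at the left edge.

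Genes that work beside the flippases were compared by lists written from general knowledge, with earlier results of these data known. In the membranes where flippases build the lipid asymmetry, scramblases undo it. Of 10 tested scramblase genes 2 were called higher and none lower, with a median of 0.09, where 4.92% of all genes were called higher. Plscr2 rose by 0.22 (SE 0.10, adjusted p = 0.588 in limma) and by 0.07 within slide 2, and it lost its call in 15 of 26 other settings, the values normalized by the authors among them. Ano6, the calcium-activated scramblase that exposes phosphatidylserine on platelets, was higher by 0.21 (SE 0.09, adjusted p = 0.564 in limma) and differed by -0.001 within slide 2. Neither group pair was free of overlap.

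In yeast the Atp9 ortholog Neo1 acts with Mon2, Dop1 and a sorting nexin in retrieval from endosomes. A wider list of 18 endosomal sorting genes, which also holds Vps, Rab, Ap3 and Arl1 genes, was tested in full. Of these, 1 was called lower and none higher, with a median of -0.01, where 3.43% of all genes were called lower. Mon2 read 5.95 to 6.21 in Floxed mice and 5.21 to 6.26 in LKO mice, a difference of -0.36 (SE 0.15, adjusted p = 0.551 in limma). LKO 1 and LKO 2 were level with Floxed mice and LKO 3 to LKO 6 lay at 5.21 to 5.65. Within slide 2 Mon2 was higher in LKO mice by 0.13. Dop1b differed by 0.002 and Snx3 by -0.06, and neither was called.

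No gene was called by limma among 9 genes of bile salt and lipid transport in hepatocytes, whose median difference was -0.03, against 8.35% of all genes. The list holds transporters and the bile acid receptor Nr1h4. The brightest of them were the bile salt uptake carrier Slc10a1 of the sinusoidal membrane, with -0.03 (SE 0.12), and the bile salt export pump Abcb11, with 0.07 (SE 0.11). Abcb4, the floppase that moves phosphatidylcholine into bile and against which Atp8b1 protects the canaliculus, differed by 0.05 (SE 0.10). A further list held 9 genes of phosphatidylserine and phosphatidylethanolamine metabolism, among them Pemt, an enzyme that uses phosphatidylethanolamine to make phosphatidylcholine. Of these 9, 1 was called lower and none higher, where 3.43% of all genes were called lower. On the higher side were 8 of 9 with a list median of 0.06, while 51.2% of all tested genes were lower. The called gene was Etnk1, an ethanolamine kinase of the first step to phosphatidylethanolamine. Etnk1 was at 7.76 to 8.39 in Floxed mice and 7.26 to 7.87 in LKO mice, a difference of -0.48 (SE 0.13, adjusted p = 0.315 in limma) and of -0.23 within slide 2. Etnk2, the other ethanolamine kinase of the list, was not called. It differed by 0.18 (SE 0.12) on its brighter probe and by 0.15 on the second. Ptdss1, which makes phosphatidylserine from phosphatidylcholine, differed by 0.04.

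Of 13 tested P-type ATPases outside the flippase family, 3 were called higher and none lower, with a median of -0.02. Over all genes 4.92% were called higher. Atp2a3, a calcium pump of the endoplasmic reticulum found in blood and endothelial cells, read 4.55 to 5.20 in Floxed mice and 5.28 to 5.66 in LKO mice. It rose by 0.64 (SE 0.12, adjusted p = 0.156 in limma) without overlap, as did 0.207% of all tested genes, and by 0.43 within slide 2. Of 7 tested endothelial markers 1 was called higher, and their mean deviation per array was -0.23 to 0.15 in Floxed mice and -0.10 to 0.30 in LKO mice, while 0 of 4 blood markers were called. Their part in the value of Atp2a3 was not tested. Atp12a, a proton and potassium pump, rose by 1.12 (SE 0.35, adjusted p = 0.371 in limma) over all arrays but differed by -0.12 within slide 2. Atp2c2, a calcium pump of the secretory pathway, rose by 0.50 (SE 0.18, adjusted p = 0.440 in limma) and differed by -0.18 within slide 2. Over these lists and the other flippases, 7 of 62 tested genes were called, or 11.3% beside 8.35% of all genes, with 2 lower and 5 higher and 0 after adjustment by limma.

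**Figure D5:**
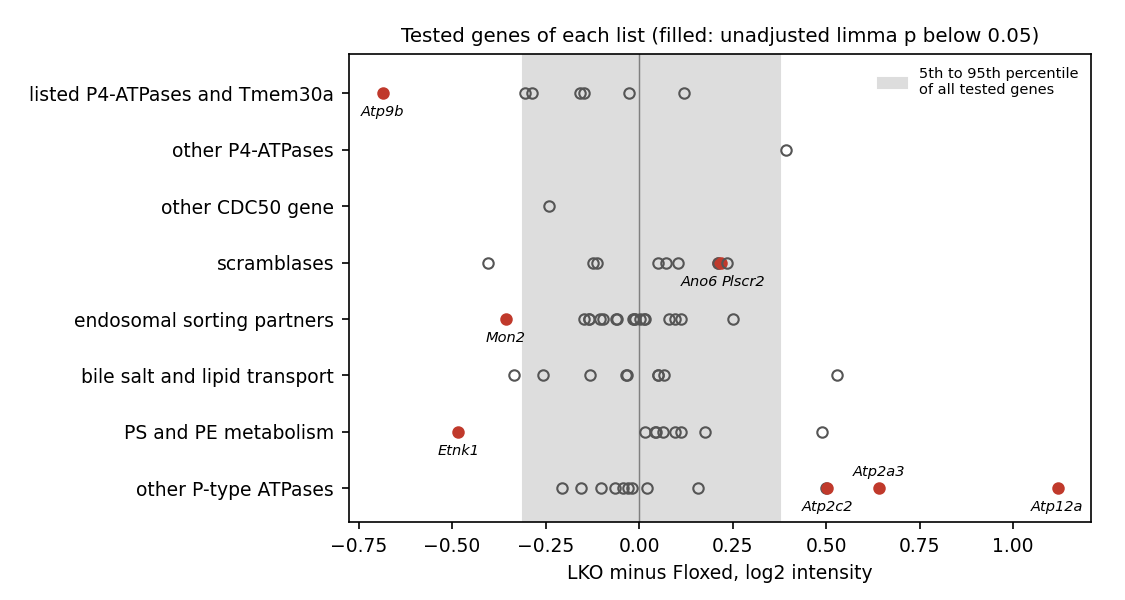
Each circle is a tested gene described here or a member of a further list, placed by LKO minus Floxed on the log2 scale (x axis) in the row of its list, filled where the unadjusted limma p was below 0.05, and the grey band holds the middle of all tested genes from the 5th to the 95th percentile (-0.31 to 0.38). Atp9b is the lowest circle at -0.69 and Atp12a the highest at 1.12, and the other listed flippases lie inside the band.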

How the data were processed

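Liver RNA of 12 mice was measured on single-color Agilent mouse arrays, 1 mouse per array. The paper names the RiboPure kit for the RNA and the labels name TRIzol with a Promega column. The authors deposited for each array the spot intensity (raw median, local background and background-corrected processed intensity, not normalized between arrays) with flags, and a table of quantile-normalized intensity. The file headers name Feature Extraction 10.7.1.1 and the submitters' processing notes 9.5.1.1.

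Control spots were dropped, which left 43020 spots of 39429 probes, with 0 saturated spots. Processed intensities were put on the log2 scale and brought to 1 distribution by quantile normalization, outlier spots (0.298%) were set missing, and spots of a probe were averaged. Probes stayed in where the scan marked them as well above background on each of the 12 arrays (20403 probes), in place of the detection p-value on which the authors filtered. Genes were named by RefSeq accession through a table of assembly GRCm38.p6 (94.3% of 28389 probes matched), and the brightest probe stood for a gene. The array design rests on another build, so no coordinates are given. Genotypes, taken from the labels, were compared with limma 3.58.1 (lmFit, eBayes, R 4.3.3) over all arrays without covariates, and p-values were adjusted over all 16916 genes. The 6 mice of a genotype are separate animals. The code was tested on simulated data. No sequencing depth applies, and the number of arrays limits the precision.

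The genes, lists and tests were chosen with earlier results of these data known. Named were the 9 listed genes on each probe, every other P4-ATPase and CDC50 gene with a probe, the called genes of each further list (at most 4, or the 2 brightest where none was called), the 5 genes most correlated with Atp9b, and Phgdh, of which 2 genes are not reported here. Abcb4, Ptdss1, Etnk2, Dop1b, Snx3, Pecam1 and the fat and pancreas markers were named after their values were seen. Alternatives covered the normalization, background correction, dim probes, outlier spots, several probes, threshold, t-test, slide, replicate number and each array left out. The scale without normalization between arrays, slide 2 alone, slide 1 against slide 3, and the removal of both LKO arrays of slide 2 were added after seeing the data.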

Additional observations from a re-analysis of the deposited data

Results flagged for a closer look

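In each genotype, values of the named genes were searched for an array far from the other 5, by Dixon's ratio at the 95% level. Over 46 groups of 23 genes, 3 were found, where chance gives 2.3. For Atp11b, Floxed mouse 2 was lowest at 8.76, and the other Floxed mice lay between 9.05 and 9.17. Floxed mouse 2 also had the lowest value of Atp11a, on both of its probes. For Atp12a, Floxed mouse 5 was highest at 7.71, and the others lay between 5.66 and 6.29. For Lrrc66, the gene most like Atp9b, Floxed mouse 1 was highest at 9.11, and the others lay between 6.85 and 7.64.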

How the results depend on the processing

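Atp9b was lower in LKO mice under every setting run. Over 26 settings, without the values of slide 2 on other scales, its difference lay between -0.89 and -0.27. It was -0.27 with normexp, whose offset of 50 is near its own intensity, and -0.29 with slide as a fixed block, which equals the value of slide 2 alone. Leaving out 1 array gave -0.77 to -0.59. Within slide 2 its difference stayed between -0.29 and -0.15 on other scales. Of the 7 tested members, 0 were called with slide as a fixed block, after adjustment, at an absolute log2 difference of at least 1 or by the adjusted t-test. Atp8b1 joined Atp9b, for 2 called, with slide as a random block (consensus correlation -0.066), between slide 1 and slide 3, without LKO 1 and LKO 2, without Floxed 1, and without Floxed 6, as did Atp8a1 without LKO 3. Leaving out 1 array gave 1 to 2. Keeping dim probes gave 2 (Atp10a added) and the mean of probes 3.

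All genes called numbered 2791 of 32525 without the filter on dim probes, 317 with slide as a fixed block, 88 at an absolute log2 difference of at least 1, 0 after adjustment, 1 by the adjusted t-test, 2172 without LKO 1 and LKO 2, and 1103 to 1837 with 1 array left out. Of the 62 other genes, 0 were called with slide as a fixed block, after adjustment or by the adjusted t-test, 1 at an absolute log2 difference of at least 1, and 5 to 9 with 1 array left out. With slide as a fixed block the sign turned for Ano6 (-0.0012), Mon2 (0.126), Atp12a (-0.124), Atp2c2 (-0.180) and Ehbp1 (0.0023). The cause of these shifts was not tested. Plscr2 kept its call in 11, Mon2 in 12 and Ano6 in 15 of 26 settings. Tmem30b was called lower without LKO 1 and LKO 2.

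Floxed and LKO mice share replicate numbers, and the animal numbers in the sample titles are adjacent for mice that share one. Controls were littermates, but the labels do not say which mice shared a litter. Deviations of mice with the same number correlated between -0.235 and 0.317, and in 2 of 6 Floxed mice the own number correlated best, so the numbers were not taken to pair the mice. With the replicate block, 2 members were called (Atp8b1, SE 0.13, and Atp9b) in place of 1, all genes gave 1428 calls, and the 62 other genes gave 10, the 7 called before and Atp8b5, Atp13a3 and Atp2b2.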
